A study of Mus musculus with 6 samples.

Results

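The Notch genes analysed here are the 4 receptors Notch1, Notch2, Notch3 and Notch4, the 4 ligands Jag1, Jag2, Dll1 and Dll4, and the 2 target genes Hes1 and Hey1. They were chosen by gene name, and all 10 were found among the 33971 genes of the deposited table. RNA was sequenced from articular cartilage of wildtype (WT) mice, with 3 libraries made at the age of 2 months and 3 at 18 months. The study describes its mice as male, names no other agent or allele for these animals, and uses the 2 ages to compare young with aged cartilage. The labels number the libraries within an age but do not say whether each came from a separate animal or from pooled animals, so p-values measure only the spread between these libraries.

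Notch receptors are single-pass membrane proteins that are bound by Jagged and Delta-like ligands on neighbouring cells. Binding lets a metalloprotease and then the γ-secretase complex cut the receptor, and the freed intracellular domain enters the nucleus, joins the DNA-binding protein RBPJ and a Mastermind coactivator, and switches on Hes and Hey repressor genes. In the joint the pathway is known for holding back chondrocyte differentiation and for roles in cartilage maintenance, and it is also central to blood vessel and lymphocyte development, so a bulk cartilage sample can hold Notch transcripts from several cell types.

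The promoters of the 4 receptors are shown because these paralogs differ in level and in their difference with age. Each window runs from 250 bases before to 50 bases after the RefSeq start of transcription on GRCm38.p6, is written 5′ to 3′ on the strand of the gene, and has every CG dinucleotide in capitals. The Notch1 window (chr2:26503773-26504072, minus strand) starts inside the gene interval of the deposited table, which ends at 26516663. The windows of Notch2 (chr3:98013288-98013587, plus strand), Notch3 (chr17:32166841-32167140, minus strand) and Notch4 (chr17:34564045-34564344, plus strand) lie at the 5′ end of the interval of the table.
Notch1: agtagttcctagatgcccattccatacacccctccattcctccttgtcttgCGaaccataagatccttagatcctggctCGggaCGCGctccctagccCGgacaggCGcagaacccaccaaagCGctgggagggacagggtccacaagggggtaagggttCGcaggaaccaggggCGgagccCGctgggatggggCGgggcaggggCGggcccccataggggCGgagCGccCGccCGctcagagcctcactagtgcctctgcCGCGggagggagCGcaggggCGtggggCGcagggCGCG
Notch2: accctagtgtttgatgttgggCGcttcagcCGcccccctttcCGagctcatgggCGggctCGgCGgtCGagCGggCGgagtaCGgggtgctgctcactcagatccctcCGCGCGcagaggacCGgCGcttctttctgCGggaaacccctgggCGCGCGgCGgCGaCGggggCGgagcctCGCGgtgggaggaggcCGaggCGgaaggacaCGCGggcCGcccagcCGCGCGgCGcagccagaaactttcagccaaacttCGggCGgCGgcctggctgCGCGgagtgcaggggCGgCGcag
Notch3: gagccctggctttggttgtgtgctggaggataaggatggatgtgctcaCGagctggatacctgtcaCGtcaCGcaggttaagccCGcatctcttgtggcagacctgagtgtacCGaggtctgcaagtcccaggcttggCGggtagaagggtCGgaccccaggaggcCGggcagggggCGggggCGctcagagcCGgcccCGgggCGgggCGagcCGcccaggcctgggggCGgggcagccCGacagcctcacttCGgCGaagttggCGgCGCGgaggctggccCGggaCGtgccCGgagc
Notch4: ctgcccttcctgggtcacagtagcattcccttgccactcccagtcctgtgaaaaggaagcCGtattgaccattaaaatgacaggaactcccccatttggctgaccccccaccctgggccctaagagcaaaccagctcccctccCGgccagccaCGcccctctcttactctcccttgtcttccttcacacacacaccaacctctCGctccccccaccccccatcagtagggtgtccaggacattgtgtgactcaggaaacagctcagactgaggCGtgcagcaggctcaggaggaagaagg

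The Notch1, Notch2 and Notch3 windows are rich in G and C, with 23, 41 and 25 CG dinucleotides and GC contents of 68.3%, 73.0% and 70.0%. The Notch4 window holds 5 CG dinucleotides at a GC content of 58.3%. Over all 32851 RefSeq windows of 300 bases the median was 7 CG dinucleotides (quartiles 3 and 20) and 52.7% GC. Among the ligands, the Jag2 window held 63 CG dinucleotides at 86.0% GC, the Jag1 window 22 and the Dll4 window 17, and the windows of 2 Dll1 starts held 24 and 15. The RBPJ core TGGGAA, searched on both strands, was present in 25.6% of all windows, and the longer GTGGGAA, which contains it, in 6.38%. Neither was found in the 9 windows of the 8 members with an entry, which says only that these letters are not in these 300 bases.

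The libraries held 48171507 to 59085179 counts. 2-month replicate 2 stood apart from the other libraries of its age. Transcripts of B lymphocytes, neutrophils and endothelial cells were 24.5, 39.5 and 3.25 times higher in it than in the mean of replicates 1 and 3, against a median of 1.10 over the 20397 genes tested. Of the 10 Notch genes, 7 were more than 2 times higher in this library than in the mean of the other 2-month libraries, compared with 20.3% of the genes tested, and 6 had their highest level of all 6 libraries in it. The values of the 10 genes, the shares, the sums, the order of levels and the counts of calls are therefore given with and without 2-month replicate 2. Leaving out a library singled out by these high values makes the 18-month difference of such genes more positive by construction. The p-values without it are therefore a description and not independent evidence. Counts of Xist, transcribed from the inactive X, were 88239 to 102417 at 2 months and 11 to 30 at 18 months, and those of Y-linked Ddx3y were 0 to 10 and 4333 to 4839, respectively. These genes divided the libraries by age, although the study describes male mice, and sex and age cannot be told apart here.

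The cell types in the libraries also differed with age. All 16 genes of the chondrocyte list fell, and their summed level was 74794–88151 CPM (counts scaled to library size) at 2 months. It was 8455, 1959 and 1947 CPM in 18-month replicates 1, 2 and 3, so 18-month replicate 1 stood apart from the other 18-month libraries. The summed level of the neutrophil list was 17.2, 5644 and 269 CPM in 2-month replicates 1, 2 and 3 and 43128–46325 CPM at 18 months. Chondrocyte genes summed above neutrophil genes in every 2-month library and below them in every 18-month library. In bulk tissue, fewer cells of a type and less RNA per cell cannot be told apart, and the part of these shifts in the Notch values was not tested.

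**Figure D1:**
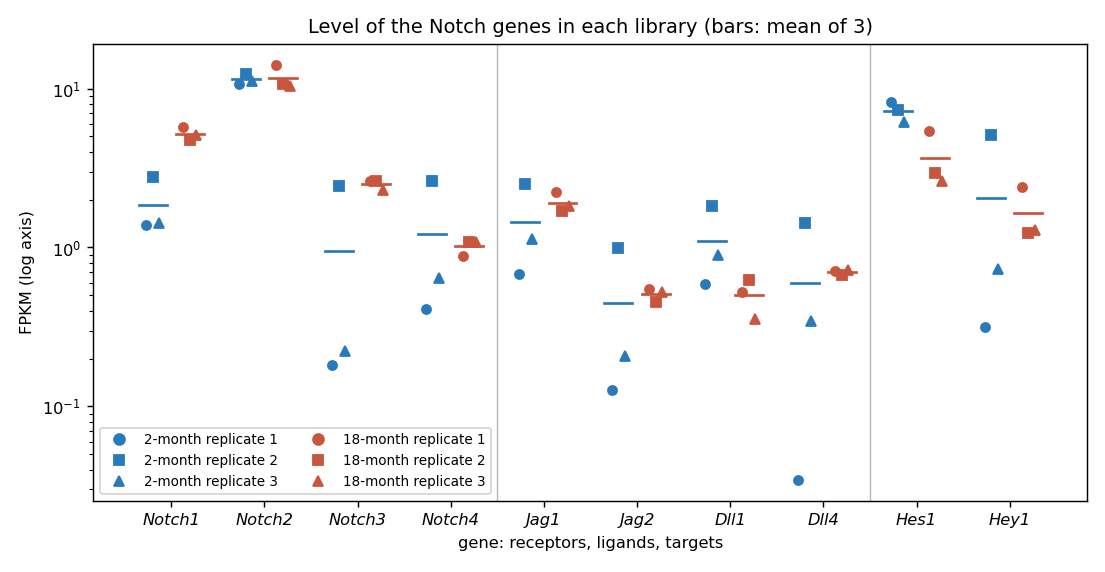
Level of each Notch gene in each library, as FPKM on a log axis, with 2-month libraries in blue, 18-month libraries in red and a bar at the mean of 3 libraries. The ages are separate for Notch1 and Hes1, and 2-month replicate 2 (blue square) lies above the other 2-month libraries for every gene except Hes1.

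With all 6 libraries, 2 of the 10 Notch genes changed between 2 and 18 months: Notch1 was higher and Hes1 was lower at 18 months. Calls needed an adjusted p under 0.05 and a log2 fold change beyond 1 in either direction, and 36.3% of all genes tested met this rule, so 2 of 10 is below the background. The FPKM values of the ages did not overlap for the same 2 genes, against 68.4% of all genes. By adjusted p alone, 2 of 10 passed as well, against 51.3%. Over the 10 genes the median log2 fold change was 0.06, and over all genes it was -0.02. Without 2-month replicate 2, 5 of the 10 genes were called, with Notch1, Notch3, Jag2 and Hey1 higher and Hes1 lower, against a background of 44.6% of 21489 genes.

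Among the receptors, Notch1 is the broadly expressed family member that guides T lymphocyte fate and arterial identity and that chondrocytes also use. Its level was 1.39, 2.76 and 1.43 FPKM in 2-month replicates 1, 2 and 3 and 5.75, 4.78 and 5.09 FPKM in 18-month replicates 1, 2 and 3. Every 18-month library was above every 2-month library, and 2-month replicate 2 was the highest of its age. The counts behind these levels were 1091, 2305 and 1148 at 2 months and 5510, 4280 and 4628 at 18 months. Notch1 rose by a log2 fold change of 1.42 ± 0.26 (SE, 3 against 3 libraries), with an adjusted p of 0.00689. With 2-month replicate 2 left out, the log2 fold change was 1.78 ± 0.10 (SE), with an adjusted p of 0.000109.

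Notch2, a receptor with roles in bone and in marginal zone B lymphocytes, was the most abundant of the 10 genes at both ages. Its level was 10.7, 12.4 and 11.2 FPKM in the 2-month libraries and 14.1, 10.6 and 10.4 FPKM in the 18-month libraries. The ages overlapped, and the highest and the lowest libraries were both of 18 months. Its log2 fold change was -0.04 ± 0.14 (SE, adjusted p = 0.821), and without 2-month replicate 2 it was -0.00095 ± 0.14 (SE, adjusted p = 0.996).

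Notch3 is the receptor of pericytes and vascular smooth muscle. Its level was 0.182, 2.45 and 0.224 FPKM in the 2-month libraries and 2.63, 2.61 and 2.32 FPKM in the 18-month libraries. 2-month replicates 1 and 3 were low, with 82 and 102 counts, whereas 2-month replicate 2, with 1162 counts, lay among the 18-month libraries in FPKM, which held 1196 to 1429 counts. With all libraries the log2 fold change of Notch3 was 1.39 ± 0.99 (SE, adjusted p = 0.279), which is within the spread. When 2-month replicate 2 was left out, Notch3 was called higher, with a log2 fold change of 3.52 ± 0.18 (SE) and an adjusted p of 8.64e-05, so this call rested on that 1 library.

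Notch4, a receptor found mainly in endothelial cells, had levels of 0.411, 2.602 and 0.645 FPKM at 2 months and 0.888, 1.08 and 1.08 FPKM at 18 months. The highest and the lowest values were both from 2-month libraries. Its log2 fold change was -0.29 ± 0.65 (SE, adjusted p = 0.730). Its sign turned without 2-month replicate 2, to 0.83 ± 0.28 (SE, adjusted p = 0.0449), which passed the adjusted p but not the fold limit.

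**Figure D2:**
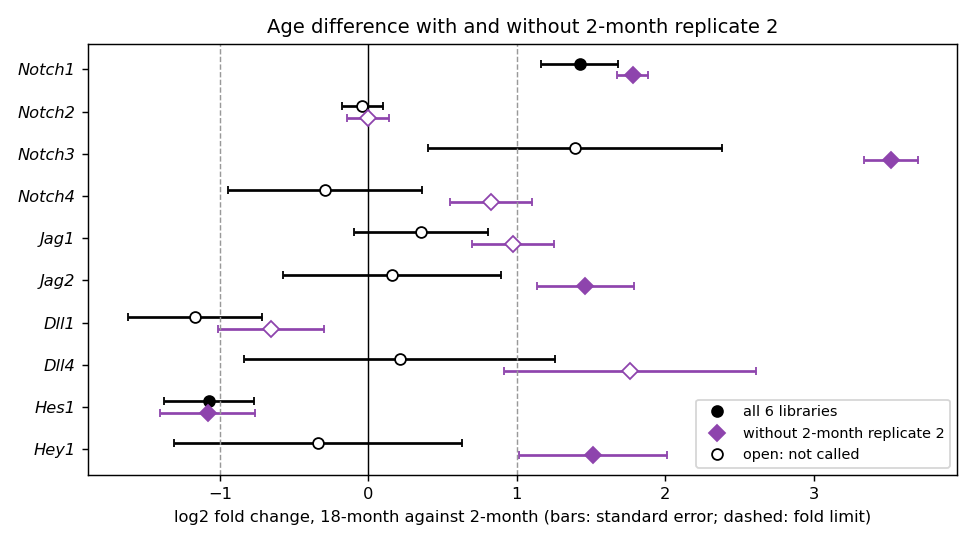
Log2 fold change of each Notch gene at 18 months against 2 months (bars are SE), with all 6 libraries (circles) and without 2-month replicate 2 (diamonds). Filled symbols are called genes, and Notch3 moves from 1.39 with all libraries to 3.52 without that library while Hes1 stays at -1.07 and -1.08.

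Among the ligands, none of 4 was called with all libraries by edgeR. Jag1, the Jagged ligand expressed in cartilage, vessels and marrow stroma, had levels of 0.676, 2.52 and 1.13 FPKM at 2 months and 2.22, 1.69 and 1.82 FPKM at 18 months. 2-month replicate 2 was the highest of all libraries and the other 2-month libraries were the lowest. Its log2 fold change was 0.36 ± 0.45 (SE, adjusted p = 0.537). It was 0.97 ± 0.28 (SE, adjusted p = 0.0262) without 2-month replicate 2, just under the fold limit.

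Jag2, the second Jagged ligand, had levels of 0.127, 0.998 and 0.208 FPKM at 2 months and 0.546, 0.451 and 0.525 FPKM at 18 months. The 18-month values lay between 2-month replicate 2 and the other 2-month libraries. Its log2 fold change was 0.16 ± 0.73 (SE, adjusted p = 0.870), and without 2-month replicate 2 it was called higher, at 1.46 ± 0.33 (SE, adjusted p = 0.0114).

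Dll1, a Delta-like ligand that acts in somite formation and in marginal zone B lymphocyte development, had the lowest mean of the ligands at 18 months, at 0.502 FPKM. Its 18-month values overlapped with those of Jag2 (mean 0.507 FPKM). The level of Dll1 was 0.589, 1.81 and 0.894 FPKM at 2 months and 0.522, 0.626 and 0.357 FPKM at 18 months. The ages overlapped only through 2-month replicate 1, which lay below 18-month replicate 2. The log2 fold change of Dll1 was -1.17 ± 0.45 (SE), with an adjusted p of 0.0747, and it was not called. Without 2-month replicate 1 it was called lower at -1.45 (adjusted p = 0.0411), and without 2-month replicate 2 it was -0.66 ± 0.36 (SE, adjusted p = 0.164). Tested with DESeq2 on all libraries, Dll1 was called lower at -1.09 (adjusted p = 0.0308).

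Dll4, the Delta-like ligand of sprouting vessels, had levels of 0.0344, 1.42 and 0.347 FPKM at 2 months and 0.715, 0.668 and 0.725 FPKM at 18 months. These levels rested on 8, 320 and 75 counts at 2 months and on 186, 162 and 179 counts at 18 months. The 18-month libraries lay close together, and the 2-month libraries lay on both sides of them. Its log2 fold change was 0.21 ± 1.05 (SE, adjusted p = 0.880) with all libraries. Without 2-month replicate 2 it was 1.76 ± 0.85 (SE, adjusted p = 0.124), and Dll4 was still not called.

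The target genes differed from each other. Hes1, a repressor that Notch switches on and that other signals in chondrocytes also reach, had levels of 8.27, 7.31 and 6.15 FPKM at 2 months and 5.37, 2.96 and 2.63 FPKM at 18 months. Every 18-month library was below every 2-month library, and 18-month replicate 1 was nearest to the 2-month range. Hes1 fell by 1.07 ± 0.30 on the log2 scale (SE, adjusted p = 0.0297), close to both limits of the call. Without 2-month replicate 2 the log2 fold change was -1.08 ± 0.32 (SE, adjusted p = 0.0309). The call was lost without 2-month replicate 1 (log2 fold change -0.94, adjusted p = 0.0804), 2-month replicate 3 (-1.16, 0.0615), 18-month replicate 2 (-0.94, 0.0998) or 18-month replicate 3 (-0.88, 0.0896), and without 18-month replicate 1 it was -1.42 (adjusted p = 0.00829).

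Hey1, a Notch target of vessels and of bone-forming cells, had levels of 0.318, 5.10 and 0.730 FPKM at 2 months and 2.39, 1.24 and 1.29 FPKM at 18 months. These were 58, 976 and 136 counts at 2 months and 527, 256 and 271 counts at 18 months. 2-month replicate 2 was the highest library and the other 2-month libraries were the lowest. The log2 fold change was -0.34 ± 0.97 (SE, adjusted p = 0.789), and without 2-month replicate 2 it was 1.51 ± 0.50 (SE, adjusted p = 0.0423) and called higher. The ratio of Hes1 to Hey1 in FPKM was 26.0, 1.43 and 8.42 at 2 months and 2.25, 2.39 and 2.04 at 18 months, and the overlap between the ages came only from 2-month replicate 2.

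By mean FPKM at 2 months, Notch2 (11.4 ± 0.889, SD, n = 3) was followed by Hes1 (7.24 ± 1.06), and neither overlapped with the gene next in order. The other genes followed as Hey1, Notch1, Jag1, Notch4, Dll1, Notch3, Dll4 and Jag2, and the values of each overlapped with those of the next. With 2-month replicate 2 left out, Notch2 (mean 10.9 FPKM) and Hes1 (7.21) were followed by Notch1 (1.41), Jag1 (0.903), Dll1 (0.741), Notch4 (0.528), Hey1 (0.524), Notch3 (0.203), Dll4 (0.191) and Jag2 (0.167), so that Hey1 came after Notch1, Jag1, Dll1 and Notch4 in place of ahead of them. In that order Jag1, Dll1, Notch4 and Hey1 overlapped from each to the next, as did Notch3, Dll4 and Jag2. At 18 months the order was Notch2 (11.7 ± 2.09), Notch1 (5.21 ± 0.498), Hes1 (3.65 ± 1.499), Notch3 (2.52 ± 0.175), Jag1 (1.91 ± 0.276), Hey1 (1.64 ± 0.650), Notch4 (1.01 ± 0.109), Dll4 (0.703 ± 0.0308), Jag2 (0.507 ± 0.0498) and Dll1 (0.502 ± 0.136). The neighbours Notch1 and Hes1, Jag1 and Hey1, and Jag2 and Dll1 overlapped in that order.

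The make-up of each family was compared by the share of a gene in the summed FPKM of its family within a library, which does not depend on scaling between libraries. Notch2 made up 84.3%, 61.3% and 82.9% of receptor FPKM in the 2-month libraries and 60.4%, 55.7% and 55.0% in the 18-month libraries. Notch1 made up 11.0%, 13.7% and 10.6% at 2 months and 24.6%, 25.0% and 27.0% at 18 months. Both shares were separate between the ages, at a mean difference of -19.2 and 13.8 percentage points, with an exact two-sided permutation p of 0.1 each, the smallest that 3 against 3 libraries allow. Among the ligands, Dll1 made up 41.3%, 26.9% and 34.7% at 2 months and 13.1%, 18.2% and 10.4% at 18 months, a difference of -20.4 percentage points (exact permutation p = 0.1). Jag1 was the leading ligand in every library, at 37.3% to 47.4% at 2 months and 49.2% to 55.4% at 18 months (exact permutation p = 0.1). The FPKM of Jag1 was 1.15, 1.39 and 1.26 times that of Dll1 at 2 months and 4.25, 2.70 and 5.10 times at 18 months. The shares of Notch3, Notch4, Jag2 and Dll4 overlapped between the ages (exact permutation p = 0.2, 0.9, 0.3 and 0.3), and for Notch3, Jag2 and Dll4 the overlap came only from 2-month replicate 2. Adjusted over the 8 shares, the lowest p was 0.2, so no share passed a threshold of 0.05. Without 2-month replicate 2 the differences were -26.6 points for Notch2, 14.7 for Notch1, -24.1 for Dll1 and 6.97 for Jag1. Those of Notch3, Jag2 and Dll4 went from 7.31, 3.45 and 7.20 points with all libraries to 10.8, 5.55 and 11.6 points without it (exact permutation p = 0.1 each, the smallest that 2 against 3 libraries allow). The difference in the Notch4 share turned from -1.92 to 1.03 points.

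**Figure D3:**
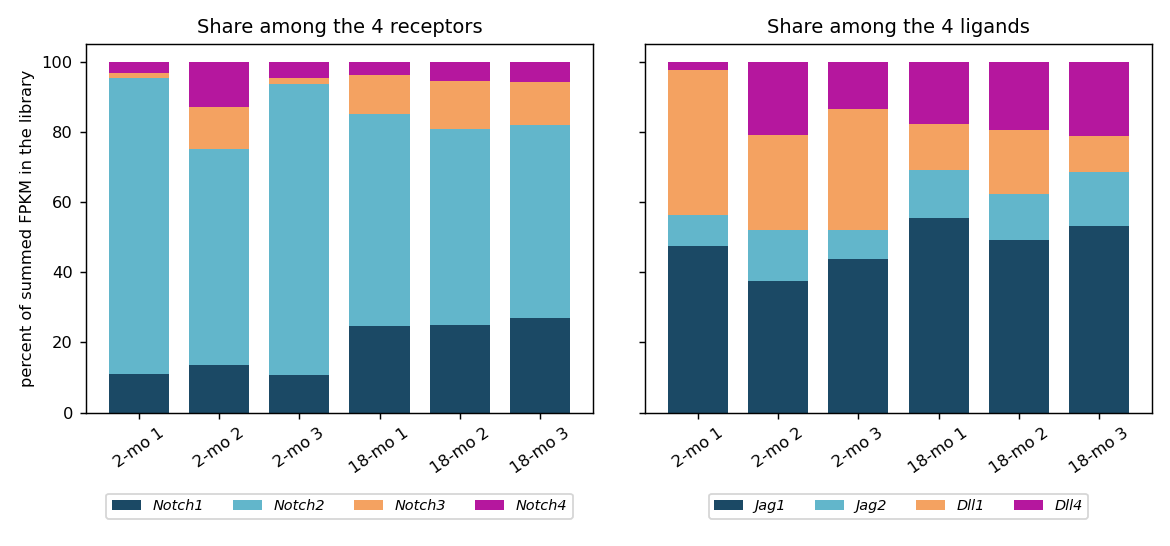
Share of each receptor (left) and ligand (right) in the summed FPKM of its family, in percent, in each library. The Notch1 band is widest in the 18-month libraries (24.6% to 27.0%) and the Dll1 band is widest in the 2-month libraries (26.9% to 41.3%).

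Summed over each family, receptor levels were 12.6, 20.2 and 13.5 FPKM at 2 months and 23.4, 19.1 and 18.9 FPKM at 18 months (exact permutation p = 0.3). Ligand sums were 1.43, 6.75 and 2.58 FPKM at 2 months and 4.001, 3.43 and 3.43 FPKM at 18 months (exact permutation p = 1). The sums of the 2 targets were 8.59, 12.4 and 6.88 FPKM at 2 months and 7.76, 4.197 and 3.92 FPKM at 18 months (exact permutation p = 0.2). None of the 3 sums was separate between the ages, and for receptors, ligands and targets alike 2-month replicate 2 was the highest 2-month library. Without it the receptor and ligand sums were separate, with a mean difference of 7.40 and 1.62 FPKM (exact permutation p = 0.1 each), against 5.02 and 0.0356 FPKM with all libraries. The target sums still overlapped, with a difference of -2.44 against -3.999 FPKM (exact permutation p = 0.3).

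The other genes of the pathway were listed by role, and 59 of 60 listed genes were in the table. Of the 56 tested, 8 rose and 15 fell, or 41.1% against a background of 36.3%, and the median log2 fold change was -0.18. Over all genes tested, 3047 were called higher and 4354 lower. The counts by role below are to be read beside these numbers, and no role was tested against them. Without 2-month replicate 2, 12 of 57 genes tested were called higher and 14 lower, or 45.6% against a background of 44.6%, which is near it. Of the genes called with all libraries, 22 were also called without that library, and 15 of the 23 genes called with all libraries were called in each of the 6 fits that left out 1 library.

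Of 9 cleavage genes, 3 rose, none fell and 6 were not called, which is near the 36.3% of all genes called in either direction. Their median log2 fold change was 0.41. Adam10, the metalloprotease that makes the first cut after ligand binding, rose by a log2 fold change of 1.81 ± 0.44 (SE, adjusted p = 0.0185), from 6.83, 21.6 and 7.65 FPKM at 2 months to 38.6, 46.0 and 45.9 FPKM at 18 months. The γ-secretase genes Psen2 and Aph1c rose by log2 fold changes of 1.08 ± 0.14 and 1.17 ± 0.16 (SE, adjusted p = 0.00274 and 0.00303). Psen2 was at 2.42 to 3.24 FPKM at 2 months and 5.76 to 6.90 FPKM at 18 months, and Aph1c was at 1.34 to 1.54 and 3.06 to 3.61 FPKM. All 3 genes were separate between the ages and remained called without 2-month replicate 2. The call of Adam10 was lost without 2-month replicate 3 (adjusted p = 0.0619), 18-month replicate 2 or 18-month replicate 3 (both 0.0566), and that of Psen2 without 18-month replicate 3, where the log2 fold change was 0.99.

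Of 7 glycosylation and maturation genes, 4 fell and 1 rose, with a median log2 fold change of -1.06, and without 2-month replicate 2 the numbers were 4 and 2. Eogt, which adds O-GlcNAc to the receptor, fell by 1.92 ± 0.18 on the log2 scale (SE, adjusted p = 0.00135), from 5.72–6.45 FPKM at 2 months to 1.33–1.898 FPKM at 18 months. Furin, the convertase that makes the first cleavage of the precursor, fell by 1.32 ± 0.16 (SE, adjusted p = 0.00237). Pofut1, which adds the O-fucose that ligand binding needs, fell by 1.06 ± 0.17 (SE, adjusted p = 0.00453). The other genes called were Poglut1, which adds O-glucose and fell by 1.15, and the fringe gene Lfng, which extends O-fucose and rose by 1.47. A second fringe gene, Mfng, had 8, 494 and 28 counts at 2 months and 991, 875 and 996 at 18 months, so that the ages were separate. Its log2 fold change was 2.29 ± 1.34 (SE, adjusted p = 0.198) with all libraries and 5.40 ± 0.52 (SE, adjusted p = 0.000507), called higher, without 2-month replicate 2. Pofut1 moved just inside the fold limit without 18-month replicate 2 (-0.996) or 3 (-0.980), and Lfng was not called without 2-month replicate 1 or any 1 of the 18-month libraries (adjusted p = 0.0524 to 0.0542).

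Of 6 further ligands tested, 4 fell and none rose, with a median log2 fold change of -2.48. Dlk2, a noncanonical ligand, had 187, 100 and 84 counts at 2 months and 3, 0 and 0 at 18 months, and was at least 47.5-fold lower at 18 months when 3 counts per library are taken as the floor. Dlk1, the imprinted relative of Dlk2, fell by 3.21 ± 0.52 on the log2 scale (SE, adjusted p = 0.00481), on 50 to 89 counts at 2 months and 6 to 12 at 18 months. Mfap5, a microfibril protein that binds Notch ligands and receptors, had 16, 20 and 81 counts at 2 months and 0, 4 and 0 at 18 months (adjusted p = 0.0297), and its call was lost without 2-month replicate 3 (adjusted p = 0.103), 18-month replicate 1 (0.0801) or 18-month replicate 3 (0.0887). The fourth was Mfap2, also a microfibril protein, which was lower at a log2 fold change of -1.34 (adjusted p = 0.0476), at -0.74 (adjusted p = 0.0619) without 2-month replicate 2, and not called in any fit that left out 1 library other than 2-month replicate 1. The list median was the same with Dlk2 set at its bound.

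Of 14 genes of the nuclear complex and its corepressors, 1 rose and 2 fell, with a median log2 fold change of -0.02. Maml2, a Mastermind coactivator, fell by 2.43 ± 0.29 on the log2 scale (SE, adjusted p = 0.00216), from 5.13–8.55 FPKM at 2 months to 1.12–1.77 FPKM at 18 months. The corepressor Ctbp1 rose by 1.09 ± 0.14 (SE, adjusted p = 0.00263). Rbpj itself was not called, with a log2 fold change of -0.48 and an adjusted p of 0.0564.

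Of 16 ubiquitin ligase, endocytosis and turnover genes, 2 rose and 5 fell, with a median log2 fold change of -0.33. Numbl, an adaptor of the Numb family that limits Notch, fell by 2.88 ± 0.18 on the log2 scale (SE, adjusted p = 0.000751), from 4.43–5.75 FPKM at 2 months to 0.624–0.773 FPKM at 18 months. Its paralog Numb went the other way and rose by 1.11 ± 0.15 (SE, adjusted p = 0.00292). Dtx3, of the Deltex ubiquitin ligase family, fell by 1.53 ± 0.14 (SE, adjusted p = 0.00135), and Aak1, a kinase of clathrin-mediated endocytosis, fell by 1.26 ± 0.10 (SE, adjusted p = 0.0010). Dtx3l was the other gene that rose, and Mib2 and Neurl1a, ligases that act on ligands, were the other genes that fell. Mib2 was not called without 18-month replicate 3 (adjusted p = 0.0541). Leaving out 2-month replicate 2, this list had 4 higher and 5 lower genes. The added ones were Dtx4, of the Deltex family, at 4.47 ± 0.56 (SE, adjusted p = 0.00129), and Nrarp, a Notch-induced regulator of the pathway, at 3.04 ± 0.70 (SE, adjusted p = 0.0129). With all libraries their log2 fold changes were 2.29 (adjusted p = 0.134) and 1.07 (adjusted p = 0.431). Of 4 further Hes and Hey genes tested, Hes6 rose by 1.06 ± 0.30 (SE, adjusted p = 0.0300) and none fell. Leaving out any 1 library other than 2-month replicate 2 ended the call of Hes6 (adjusted p = 0.0628 to 0.0906). Heyl was highest in 2-month replicate 2, with 1546 counts against 50 and 103 in the other 2-month libraries and 301 to 448 at 18 months. With all libraries its log2 fold change was -0.81 (adjusted p = 0.594), and without 2-month replicate 2 it was called higher at 1.91 (adjusted p = 0.00795).

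**Figure D4:**
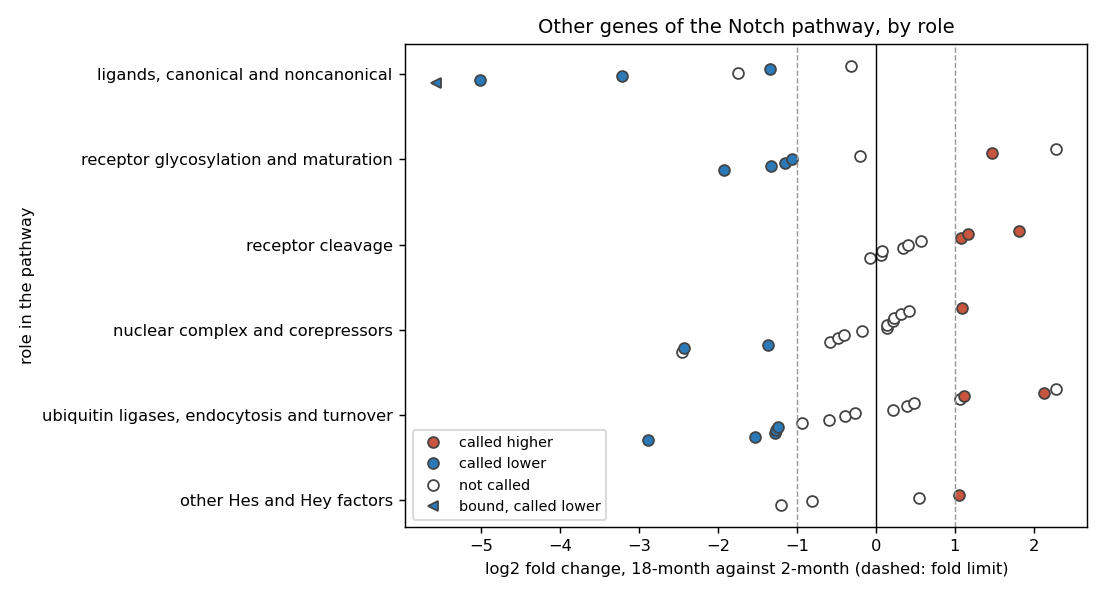
Log2 fold change at 18 months against 2 months of 56 other Notch pathway genes, 1 point a gene, by role, with genes called higher in red, called lower in blue and not called open; the triangle is Dlk2 at its bound of -5.57. All called cleavage genes lie to the right, and 4 of the 5 called glycosylation and maturation genes lie to the left. Over all genes tested 36.3% were called, and no role was tested against that share.

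The Notch genes were set beside lists of cell type markers, because bulk levels of a Notch gene can follow the cells that express it. The endothelial list had summed levels of 151, 577 and 204 CPM in the 2-month libraries and 537, 582 and 599 CPM in the 18-month libraries. Of its 16 genes, Vwf and Stab2 rose and Erg, which articular chondrocytes also express, fell. Of the 16, 14 were called higher and 1 lower without 2-month replicate 2. The order of libraries was like that of Notch3, with 2-month replicate 2 near the 18-month libraries. The mural list, of pericytes and smooth muscle, went from 453–603 CPM at 2 months to 173–205 CPM at 18 months, with Acta2, Cspg4 and Cnn1 lower and none of 11 higher. Leaving out 2-month replicate 2 gave 5 higher and 3 lower mural genes, the former including the pericyte genes Rgs5 (log2 fold change 2.07), Kcnj8 (5.59) and Abcc9 (3.81). The osteoblast and osteocyte list was at 5053, 17521 and 5846 CPM at 2 months and 3404–3598 CPM at 18 months, with 3 of 11 genes lower and none higher. When 2-month replicate 2 was left out, 3 were lower and 6 higher, the latter including Col1a1 (2.56), Ifitm5 (2.40) and Bglap2 (1.99). In both fits the 3 lower genes were Sp7, Ibsp and Alpl, at log2 fold changes of -1.89, -3.00 and -4.02 without that library.

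The blood lineage lists were low in 2-month replicates 1 and 3 and higher in 2-month replicate 2. The B lineage list was at 10.6, 315 and 15.1 CPM at 2 months and 229–276 CPM at 18 months, and none of its 11 genes was called. The T and NK lymphocyte list was at 1.20, 43.4 and 2.89 CPM at 2 months and 178–193 CPM at 18 months, with 6 of 11 genes higher. The erythroid list was at 205, 5728 and 592 CPM and then 23947–31860 CPM, with 2 of 11 genes higher. The macrophage and monocyte list was at 16.2, 620 and 94.6 CPM and then 2176–2229 CPM, with 3 of 11 genes higher. None of the 14 neutrophil genes was called, although all libraries of 18 months were above those of 2 months in the summed level. Over the 9 lists, 13 genes of 112 rose and 23 fell with all libraries, and without 2-month replicate 2 the numbers were 81 and 23. Of all genes tested, 36.3% were called (14.9% higher) with all libraries and 44.6% (23.3% higher) without that library. In the latter fit, 13 of 14 neutrophil, 11 of 11 erythroid, 10 of 11 B lineage, 11 of 11 T and NK lymphocyte and 11 of 11 macrophage and monocyte genes were called higher. No gene of these lists was at 0 in every library of an age.

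**Figure D5:**
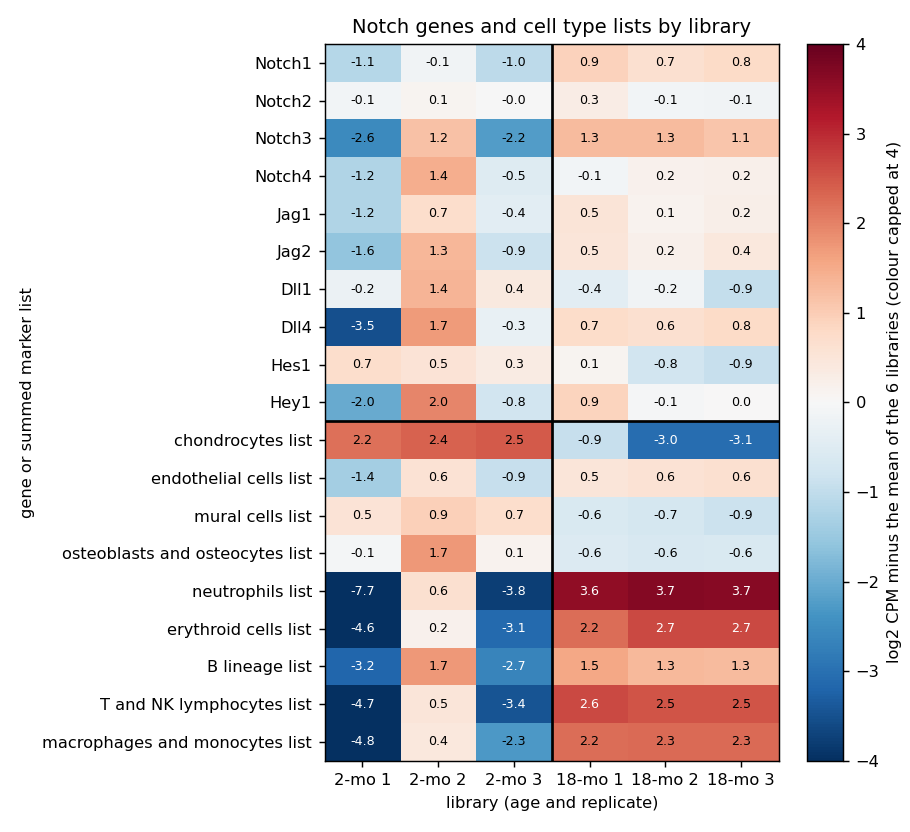
Level of each Notch gene and summed level of each marker list in each library, as log2 CPM minus the mean of the 6 libraries, with red above and blue below the mean. Notch1, Notch3, Notch4, Jag1, Jag2, Dll4 and Hey1 are lowest in 2-month replicate 1 and below the mean in 2-month replicate 3. So are the endothelial, neutrophil, erythroid, B lineage, T and NK lymphocyte, and macrophage and monocyte lists. Hes1 is highest in the 2-month libraries, as are the chondrocyte, mural, and osteoblast and osteocyte lists.

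For each Notch gene, the genes of most similar pattern were sought among 149 pathway and marker genes by the correlation of log2 CPM over the 6 libraries. These values describe 6 libraries that fall into ages and share the high 2-month replicate 2, and they carry no test. Notch1 was most similar to Numb (Pearson r = 0.99) and the cytotoxic granule gene Nkg7 (0.99). Notch2 was most similar to Adam17 (0.90), and Notch3 to the B lymphocyte genes Fcrla and Cd79b (both 0.997). Notch4 was nearest to Ebf1 and Heyl (both 0.97), Jag1 to the endothelial genes Flt1 and Cdh5 (both 0.98), and Jag2 to Cdh5 (0.996) and Col1a1 (0.99). Dll1 was nearest to Pdgfrb (0.98) and Mfap2 (0.96), and Dll4 to Emcn, a gene of venous and sinusoidal endothelium, and Mmp9 of the neutrophil list (both 0.99). Mmp9 was unlike most of that list, with overlapping ages and a log2 fold change of 0.60 against a list median of 5.00. The correlation of Dll4 with the summed neutrophil list was 0.84. Hes1 was nearest to Itch (0.97) and Acan, the aggrecan core protein (0.96), and Hey1 to Heyl (0.98) and Col1a1 (0.96). Against the summed lists, Hes1 had its highest correlation with chondrocytes (0.95), Dll1 with osteoblasts and osteocytes (0.93), Notch3 with the B lineage (0.997) and endothelial cells (0.99), and Notch1 with T and NK lymphocytes (0.98) and erythroid cells (0.98). The correlation of Notch3 with the mural list was -0.59. Of the mural sums of 453, 603 and 509 CPM in 2-month replicates 1, 2 and 3, Cspg4 alone gave 283, 303 and 322 CPM. In the osteoblast and osteocyte list, Ibsp gave 3197, 3796 and 3577 CPM of the 2-month sums of 5053, 17521 and 5846 CPM. Col1a1 gave 218, 10552 and 459 CPM there. At 18 months Ibsp was at 429–458 CPM and Col1a1 at 2088.5–2147.6 CPM.

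Positions are given on GRCm38, on which the intervals of all 10 genes are the same in the table and in GENCODE M21. Notch1 spans chr2:26457903-26516663, Jag1 chr2:137081456-137116644 and Dll4 chr2:119325784-119335962. Notch2 spans chr3:98013527-98150361 and Hey1 chr3:8663359-8667256. Notch3 spans chr17:32120820-32166852, Notch4 chr17:34564268-34588503 and Dll1 chr17:15367354-15376872, while Jag2 lies at chr12:112907819-112929776 and Hes1 at chr16:30064384-30067796. Other annotated genes overlap Notch1, Notch2, Notch3, Jag2 and Dll4, on the opposite strand for 2 of the genes at Notch1 and those at Notch3 and Dll4. The largest count of any of these was 64, for Gm42820 within Notch2, against 6318 or more counts of Notch2. At Dll4, Gm14207 had at most 19 counts in any library, and Dll4 itself had 8 to 320 counts. Because the strand setting of the counting is not stated, reads of such a pair may not be separated.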

How the data were processed

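Per the labels and the submitters' processing notes, libraries were poly(A)-selected, strand-marked with dUTP, carried molecular identifiers and were sequenced from paired ends, and the notes name cutadapt 1.9, HISAT2 2.0.4, UMI-tools, StringTie 1.3.4d, DESeq2 and edgeR. Per gene and library, the authors deposited counts as whole numbers, which are not normalized, and FPKM values, which are scaled to gene length and library size. The genome build is not given in the sources used here. Of the 33971 gene IDs, 33865 (99.7%) were found in GENCODE M21, and 30925 of these (91.3%) had identical coordinates, so positions are given on GRCm38. All 6 libraries were used, with 0 columns of values per library left out. The libraries held 48171507 to 59085179 counts.

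Differences between the ages were tested with edgeR 4.0.16 in R 4.3.3 (TMM, filterByExpr, quasi-likelihood test) and adjusted by the Benjamini-Hochberg method over 20397 genes. The SE was taken as the log2 fold change over the root of F. CPM were scaled to the total counts of each library, except that the search for genes of similar pattern used TMM-scaled library sizes. Called genes had an adjusted p below 0.05 and a log2 fold change above 1 or below -1. Shares and sums of FPKM were compared with an exact two-sided permutation test over libraries. A gene with at most 3 counts in each library of an age was taken as at the floor. Libraries of the same age differed by more than sampling noise, with a median chi-square of 6.31 to 47.3 times that expected. The lowest value was for 18-month replicates 2 and 3, and each of them was at 23.4 against 18-month replicate 1. 2-month replicate 2 was at 47.3 and 35.5 against 2-month replicates 1 and 3, which were at 12.9 against each other. The test scripts were tried on simulated data.

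Members and lists were chosen with earlier results of these data known. Named genes were all members, up to 3 called genes with the lowest adjusted p of each pathway role, genes of most similar pattern with a mean FPKM of at least 1 (log2 CPM with a prior count of 2), and the sex-linked Xist and Ddx3y. Rbpj, Numb, Heyl, Lfng, Poglut1, Mfap2, Mfng, Dtx3l, Dtx4, Nrarp, Mib2, Neurl1a and the called endothelial, mural and osteoblast genes were named after their values were seen. Role lists covered other ligands, glycosylation, cleavage, nuclear factors, turnover and other Hes and Hey genes. Ccn3 was listed under its older symbol Nov, Dll3, Hes2 and Hes5 did not pass filterByExpr, and Hes3 was not analysed here. The values of 1 called pathway gene are not reported here. The 9 marker lists covered chondrocytes, endothelial cells, mural cells, osteoblasts and osteocytes, neutrophils, erythroid cells, B lineage, T and NK lymphocytes, and macrophages and monocytes. Alternatives were other size factors, filters, DESeq2 1.42.0, limma 3.58.1 on log2 FPKM or TPM with pseudocounts of 0.1, 1 and 0.01, quantile normalization, a replicate block, leaving out each library and summing 18-month replicates 2 and 3. The sums and the order of levels without 2-month replicate 2 were added after seeing the data. Promoter sequences were from RefSeq. Plots were made in matplotlib 3.10.9 (Python 3.11.15).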

Additional observations from a re-analysis of the deposited data

How the results depend on the processing

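Notch1 was called higher under all 13 alternatives that kept every library (log2 fold change 1.11 to 1.55) and in all 6 fits without 1 library (1.27 to 1.78). Hes1 was lower throughout (-1.48 to -0.86, and -1.42 to -0.88 without 1 library), but it was not called with total counts alone (-0.99), DESeq2 (-0.99), limma on log2(FPKM + 1) (-0.86) or 18-month replicates 2 and 3 summed (-0.90). Members called were 1 with total counts alone, limma on log2(FPKM + 1) and the summed replicates, and 1 to 5 without 1 library. With DESeq2 the count was again 2, but the called genes were Notch1 and Dll1, which met both limits, and not Hes1. At adjusted p alone the count was 2, against 1 with the summed replicates, 3 with DESeq2, where Dll1 passed (-1.09, adjusted p = 0.0308), and 1 to 7 without 1 library.

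Pathway calls were 23 as reported, 15 with limma on log2(FPKM + 1) and 15 (without 18-month replicate 3) to 26 without 1 library. Marker calls were 36 as reported, 61 with DESeq2, 71, 67 and 68 with limma and a pseudocount of 0.1, 1 and 0.01, 68 on TPM, 73 with quantile normalization, and 25 to 104 without 1 library. Calls over all genes ranged from 5097 to 9594, against 7401. The higher share of these moved by over 10 percentage points with limma on log2(FPKM + 1), at 3041 higher and 2217 lower, and without 2-month replicate 2, at 5007 and 4576, against 3047 and 4354. The median of all genes moved to -0.37 on TPM and -0.10 with quantile normalization.

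Among genes not called, Notch2 changed sign, to 0.013 with median-of-ratios size factors, 0.033 with total counts, 0.038 with DESeq2, 0.027, 0.026 and 0.027 with limma and a pseudocount of 0.1, 1 and 0.01, and 0.048 with 18-month replicates 2 and 3 summed; without 1 library it ranged from -0.17 to 0.037. Notch4 changed sign with limma at 0.1 and 0.01 (0.14 and 0.19), quantile normalization (0.038) and without 2-month replicate 2, with a range of -0.69 to 0.83 without 1 library (its share: -3.78 to 1.03 percentage points). Hey1 changed sign with limma at 0.1, 1 and 0.01 (0.45, 0.11 and 0.55), on TPM (0.10), with quantile normalization (0.28) and without 2-month replicate 2, with a range of -0.84 to 1.51 without 1 library. Jag2 and Dll4 changed sign without 2-month replicate 1 or 3, with ranges of -0.27 to 1.46 and -0.34 to 1.76 without 1 library. The cause of these changes was not tested. A mean FPKM of at least 1 left no value for Jag2, Dll1 or Dll4.

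Libraries of the same number did not deviate together (correlations of 0.03, 0.04 and -0.02). With 3 libraries per age this cannot exclude a pairing, and the labels do not say whether the numbers pair libraries. A replicate block left 2 members, 21 pathway genes, 38 marker genes and 6032 genes called, and moved Notch4 to 0.12 and Hey1 to 0.51. Depth limits Dll4, with 8 counts in 2-month replicate 1, and Dlk2, at the floor at 18 months.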
